A study of Mus musculus with 3 samples.

Results

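The acute phase plasma proteins examined here are secreted proteins whose blood levels shift during inflammation, namely the serum amyloid A genes Saa1, Saa2, Saa3 and Saa4, the orosomucoid genes Orm1, Orm2 and Orm3, the pentraxin genes Crp and Apcs, and the haptoglobin gene Hp. They were chosen by name, with earlier results of these data known. All 10 had at least 1 probe set with a single gene symbol, out of 18193 such genes on the array. Together they were read by 12 probe sets, 2 each for Saa1 and Saa4 and 1 for every other gene. Where a gene had more than 1, the probe set with the highest mean over the arrays stood for it.

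Livers were profiled 1 week after each mouse received a single intraperitoneal injection of 400 microL of adeno-associated virus of serotype 8. The tested virus, MUP-iCre-AAV8, carried the iCre recombinase, which cuts out floxed DNA (1 mouse). The control virus, MUP-EGFP-AAV8, carried the fluorescent protein EGFP (2 mice, called biological replicates). All mice were 3 months old and of a mixed strain background. Both viruses carry MUP in their names, and the labels do not spell it out. The genotype labels read HNF4alpha knockout for the Cre liver and wild type for the control livers, but the design text speaks of floxed animals under either virus. A difference in genotype before injection therefore cannot be told apart from the effect of the virus.

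The acute phase response is the change in liver secretion that follows infection or injury. Interleukin-6 acts through the gp130 receptor chain and the transcription factor STAT3, and interleukin-1 and tumour necrosis factor act through NF-kappaB. Members of the C/EBP family bind many of the promoters involved. Hepatocytes are the main source of these plasma proteins, and HNF4alpha is a nuclear receptor that many hepatocyte genes depend on.

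Each liver gave 1 array, and its values are RMA log2 expression, on which a step of 1 is a 2-fold change. Differences are Cre minus the mean of the control livers, with limma's moderated standard error (SE) from 1 Cre array and 2 control arrays. A gene is said to have risen or fallen where its limma p, adjusted by Benjamini-Hochberg over 12735 fitted genes, was under 0.05. The only replicated group was the control pair, so the Cre liver was assumed to vary as the controls do, and every Cre value rests on 1 mouse. On all 4 of its probe sets the targeted gene, Hnf4a, gave less signal from the Cre liver than from either control, with differences of -0.55 to -1.18. Its brightest probe set was at 11.38 in the Cre liver, against 11.91 and 11.96 in the control livers (limma adjusted p = 0.0401). That call did not pass without the intensity trend, without the filter on dim genes or without probe sets marked as shared (adjusted p up to 0.184). In a fit of each probe set alone, the brightest one did not pass either (limma adjusted p = 0.0525). Of the 4, only 1421983_s_at was called lower there (limma adjusted p = 0.0282). Where these probe sets lie relative to the floxed part was not analysed here. Transcripts of the Y-linked genes Kdm5d, Eif2s3y and Uty were read in all 3 livers at levels of 5.14 or more, and Xist lay below the filter level of 3.77 in all of them. Of 6 fitted hepatocyte markers, the apolipoprotein genes Apoa2 (-1.81 ± 0.08 SE, limma adjusted p = 0.00206) and Apoc3 (-2.30 ± 0.09 SE, limma adjusted p = 0.00146) fell and 4 did not pass. Of those 4, Alb was at 14.62 in the Cre liver, against 14.75 and 14.72 in the control livers. The other differences were -0.10 for Ttr, 0.09 for Apoa1 and 0.16 for Fgb. The summed linear signal of the 6 markers was 95821 in the Cre liver, against 125436 and 129923 in the control livers. Most of that lower sum came from Apoa2 and Apoc3. The part of the summed signal in the falls described below was not tested. In whole liver RNA, fewer cells of a type and less RNA per cell cannot be told apart.

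Both families with more than 2 genes held genes with different outcomes. Saa1, Saa2, Saa4, Crp and Apcs fell in the Cre liver, Orm3 and Hp rose, and Saa3, Orm1 and Orm2 did not pass. Thus 5 of 10 members fell, where 5.21% of all fitted genes fell, and 2 of 10 rose, where 6.71% of all fitted genes rose (11.9% in either direction). The Cre value was below both controls for 6 members, as for 33.6% of all fitted genes, and above both for 2, as for 49.7%. All 10 were bright enough to be fitted. Their median difference was -0.63, against 0.09 over all fitted genes, and their median absolute difference was 1.45, against 0.30. The members and the lists below were chosen with earlier results of these data known, so such contrasts are no test of enrichment.

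**Figure D1:**
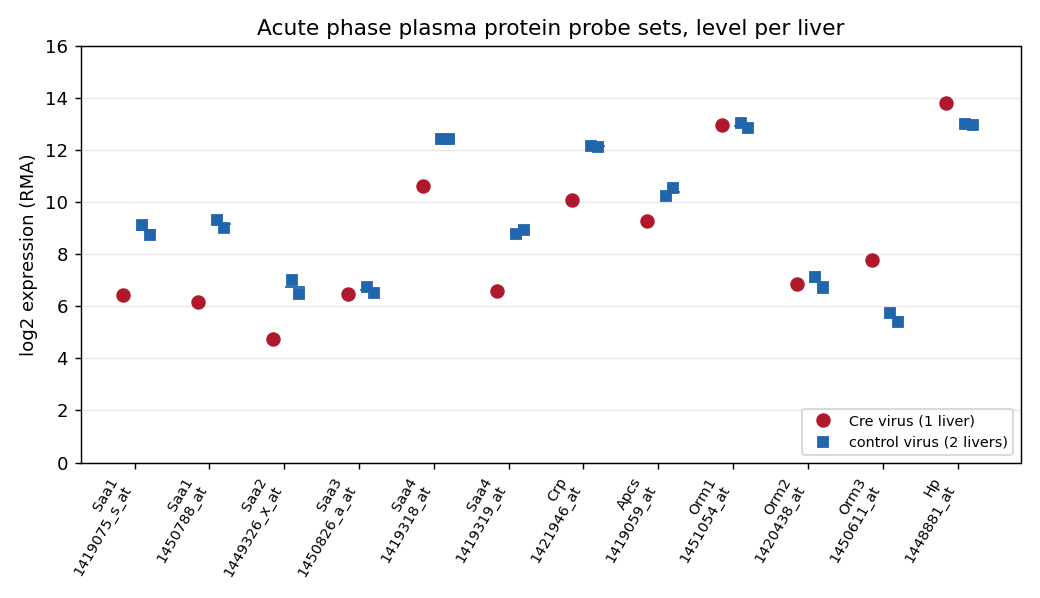
Level of each of the 12 probe sets (horizontal axis) in each liver, in RMA log2 expression (vertical axis). Circles are the Cre liver, squares are the 2 control livers, and the short line is the control mean; the Cre circle lies below both squares for Saa1, Saa2, Saa3, Saa4, Crp and Apcs, for Saa3 by only 0.03 from the nearer one, and above both for Orm3 and Hp. Heights of different probe sets are not comparable with each other.

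The serum amyloid A proteins are small apolipoproteins carried on high-density lipoprotein, and Saa1 and Saa2 are the forms that hepatocytes raise most in acute inflammation. Saa1 was at 6.18 in the Cre liver, against 9.30 and 9.02 in the control livers, on probe set 1450788_at. The Cre value was far below both controls, which differed from each other by 0.28. The fall was 7.87-fold (-2.98 ± 0.17 SE, limma adjusted p = 0.00353), the 118th lowest difference among the fitted genes.

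The second Saa1 probe set, 1419075_s_at, was at 6.44 in the Cre liver, against 9.13 and 8.74 in the control livers. Tested among all 21748 fitted probe sets, it fell by 2.50 (± 0.21 SE, limma adjusted p = 0.0157). In that fit 7 of the 12 probe sets fell, as did 3.71% of all probe sets, and 2 rose, as did 3.69% (7.40% in either direction). Its identity is uncertain, because the platform annotation names it Saa1 while the transcript accession it lists is that of Saa2 in the RefSeq mouse gene table. That table gives Saa2 as an older name of Saa1, and Saa1 as an older name of Saa2. Saa2 itself was read by 1449326_x_at, whose suffix marks probes that can bind more than 1 transcript. It was at 4.75 in the Cre liver, against 7.02 and 6.49 in the control livers. Both controls were higher, although they differed from each other by 0.54. The fall was 4.005-fold (-2.002 ± 0.27 SE, limma adjusted p = 0.0246). Saa1 and Saa2 are near copies, so signal of one may enter a probe set named for the other, and their falls are not independent measurements.

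Saa4 encodes a serum amyloid A protein that, in contrast to Saa1 and Saa2, is made without an inflammatory stimulus. On 1419318_at it was at 10.64 in the Cre liver, against 12.42 and 12.42 in the control livers. The controls were almost equal, and the fall was 3.44-fold (-1.78 ± 0.09 SE, limma adjusted p = 0.00287). Its other probe set, 1419319_at, was at 6.59 in the Cre liver, against 8.79 and 8.92 in the control livers. That probe set fell too, by 2.27 (± 0.14 SE, limma adjusted p = 0.00769 over probe sets).

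Saa3, which macrophages and other cells outside the hepatocyte lineage also make, behaved differently. It was at 6.47 in the Cre liver, against 6.73 and 6.502 in the control livers. The Cre value was the lowest, by only 0.03 from the nearer control. The difference of -0.14 (± 0.17 SE, limma adjusted p = 0.625) had a 95% interval from -0.62 to 0.34, or 0.652 to 1.26 as a ratio of Cre to control. The probe set is of the _a_at kind, and no other one named Saa3 was available.

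The promoters of Saa1 and Saa2 are shown because these near copies fell together, and because they carry the same C/EBP word. Sequences are the 250 bases before each gene's start in RefSeq (GRCm38.p6), on the strand of the gene, at chr7:46742981-46743230 (minus strand) for Saa1 and chr7:46751583-46751832 (plus strand) for Saa2. Capitals mark matches to TTGCNNAA, a C/EBP motif, on either strand.
Saa1: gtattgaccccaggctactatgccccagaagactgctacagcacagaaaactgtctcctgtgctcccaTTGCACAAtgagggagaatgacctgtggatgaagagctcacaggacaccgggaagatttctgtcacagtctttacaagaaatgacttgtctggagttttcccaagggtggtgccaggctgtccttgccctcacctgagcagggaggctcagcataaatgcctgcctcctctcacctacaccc
Saa2: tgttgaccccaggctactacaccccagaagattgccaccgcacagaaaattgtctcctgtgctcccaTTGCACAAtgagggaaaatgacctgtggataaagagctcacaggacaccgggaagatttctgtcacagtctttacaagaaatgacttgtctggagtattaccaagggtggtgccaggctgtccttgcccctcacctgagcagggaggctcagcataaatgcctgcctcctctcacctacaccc
In a global alignment 94.8% of columns were identical. The matched word, TTGCACAA, began 182 bases before the start in Saa1 and 183 bases before it in Saa2. With Saa3 the Saa1 window shared 52.2% of alignment columns, and with Saa4 49.5%, values in the range of 45.5% to 54.9% seen between Saa1 and the windows of the other families.

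The pentraxins are ring-shaped pattern recognition proteins that bind microbial and damaged cell surfaces and engage complement. In mice serum amyloid P component, the product of Apcs, is the main acute phase pentraxin, and C-reactive protein, the product of Crp, responds little, in contrast to humans. Crp was at 10.10 in the Cre liver, against 12.15 and 12.14 in the control livers. The control values were nearly the same, and the fall was 4.13-fold (-2.04 ± 0.10 SE, limma adjusted p = 0.00234). Apcs was at 9.26 in the Cre liver, against 10.22 and 10.55 in the control livers. It fell 2.18-fold (-1.12 ± 0.18 SE, limma adjusted p = 0.0327). This call was the least firm of those for the 10 genes, since without the intensity trend the adjusted p was 0.0534 and without the filter on dim genes 0.0588.

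Orosomucoids, also called alpha-1-acid glycoproteins, are heavily glycosylated lipocalins that bind lipids and many drugs in plasma. Orm3 was at 7.77 in the Cre liver, against 5.76 and 5.41 in the control livers. The Cre liver stood well above both controls, and the rise was 4.56-fold (2.19 ± 0.21 SE, limma adjusted p = 0.0123), the 87th highest difference among the fitted genes.

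The other orosomucoid genes did not share that rise. Orm1 was at 12.96 in the Cre liver, against 13.05 and 12.84 in the control livers, so that the Cre value lay between the controls. Its difference was 0.02 (± 0.12 SE, limma adjusted p = 0.922), with a 95% interval from -0.31 to 0.35. Orm2 was at 6.88 in the Cre liver, against 7.14 and 6.70 in the control livers, again between them. The Orm2 difference was -0.04 (± 0.23 SE, limma adjusted p = 0.913), with an interval from -0.68 to 0.60. The sign of both depended on which control was used. The interval of Orm3, from 1.61 to 2.77, did not overlap with those of Orm1 or Orm2, but the difference between the genes was not tested.

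Orm2 and Orm3 lie next to each other on chromosome 4, and their promoters are shown because they are alike while only the Orm3 signal rose past the threshold. The windows are at chr4:63355908-63356157 for Orm3 and chr4:63362199-63362448 for Orm2 (RefSeq, GRCm38.p6, both plus strand), with the C/EBP word in capitals.
Orm3: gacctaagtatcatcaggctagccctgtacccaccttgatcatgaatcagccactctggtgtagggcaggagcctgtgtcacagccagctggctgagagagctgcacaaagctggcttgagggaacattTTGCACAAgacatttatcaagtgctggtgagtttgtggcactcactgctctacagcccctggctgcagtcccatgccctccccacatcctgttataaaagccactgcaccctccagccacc
Orm2: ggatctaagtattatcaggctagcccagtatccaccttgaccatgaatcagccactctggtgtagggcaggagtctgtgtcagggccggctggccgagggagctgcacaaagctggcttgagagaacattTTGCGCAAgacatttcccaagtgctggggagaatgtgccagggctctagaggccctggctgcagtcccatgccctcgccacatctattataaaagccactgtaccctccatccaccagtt
The windows were identical in 85.9% of alignment columns. The capital word began 121 bases before the start in Orm3 and 120 bases before it in Orm2, where it matched on both strands. Orm1, Orm2 and Orm3 are near copies, and whether their transcripts share signal on these probe sets was not tested.

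Haptoglobin binds free haemoglobin and so limits the loss of iron and oxidative damage. Hp was at 13.82 in the Cre liver, against 12.99 and 12.95 in the control livers. The controls differed by 0.04, and the rise was 1.80-fold (0.85 ± 0.08 SE, limma adjusted p = 0.0129). Hp is among the brightest signals on the array, at the 99.6th percentile of mean level among fitted genes.

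**Figure D2:**
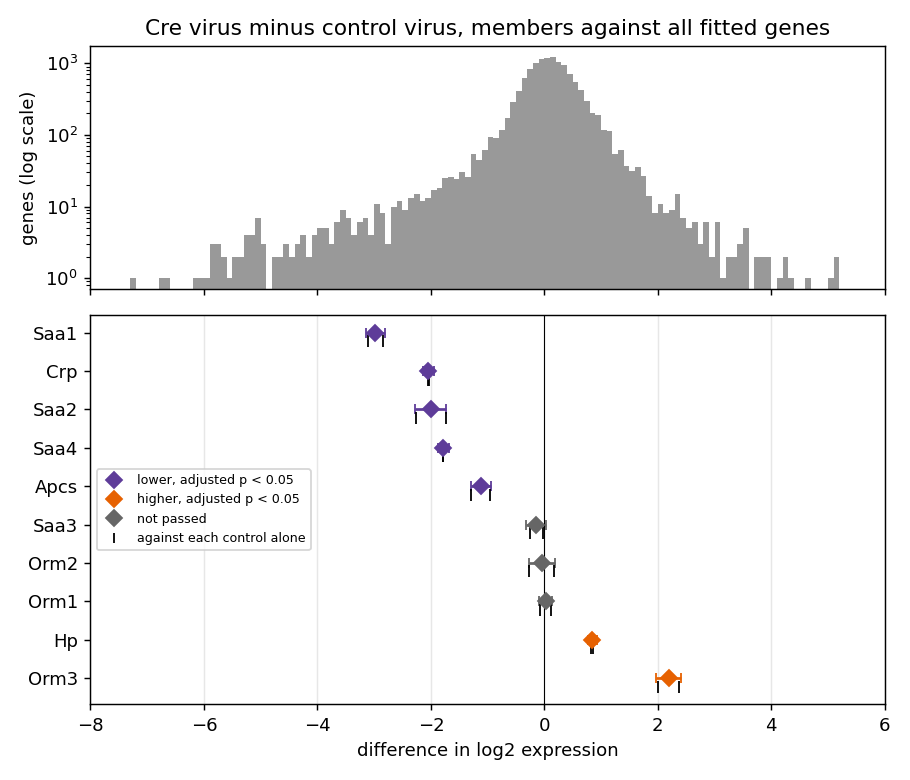
Top, number of fitted genes (log scale) in each bin of the difference between the Cre liver and the control mean, in log2 expression. Bottom, the same difference for the 10 genes, with bars for 1 SE and ticks for the difference from each control alone; differences run from -2.98 for Saa1 to 2.19 for Orm3, and only for Orm1 and Orm2 do the ticks fall on both sides of 0.

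Ordered by their differences, Saa1 was lowest at -2.98, followed by Crp at -2.04, Saa2 at -2.002, Saa4 at -1.78 and Apcs at -1.12. The 95% intervals of Crp, Saa2 and Saa4 overlapped, as did those of Saa2, Saa4 and Apcs, so the order within each trio is not settled. That of Saa1, from -3.45 to -2.50, overlapped with that of Saa2 but not with that of Crp or Saa4. Saa3, Orm2 and Orm1 followed with overlapping intervals around 0, then Hp at 0.85, whose interval from 0.62 to 1.08 was clear of theirs for Orm1, Orm2 and Saa3. By size alone, Saa1, Saa2, Saa4 and Crp were at least 1 log2 unit below both controls, as were 3.72% of all fitted genes. Orm3 was at least 1 unit above both, as were 3.67% of all fitted genes.

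By gene order in the RefSeq table, the 4 serum amyloid A genes are consecutive protein-coding genes on chromosome 7, in the order Saa3, Saa4, Saa1, Saa2. The falls covered the 3 consecutive genes Saa4, Saa1 and Saa2. The flanking genes did not pass, with Saal1, beside Saa3, at 0.08 ± 0.27 SE and Hps5, beside Saa2, at 0.27 ± 0.18 SE (limma adjusted p = 0.863 and 0.368). On chromosome 4 the order is Orm1, Orm3, Orm2. There the rise of Orm3 lay between genes that did not pass, and Col27a1, a collagen gene beside Orm1, fell (-1.60 ± 0.14 SE, limma adjusted p = 0.0106). Crp and Apcs are adjacent on chromosome 1, and both fell, while the next gene measured beside Crp, Dusp23, was at -0.16 ± 0.20 SE.

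Promoter windows of 300 bases, 250 before and 50 after the start, were available for 8 of the 10 genes, all but Orm1 and Hp. The C/EBP motif TTGCNNAA, searched on both strands, was found in 6 of these 8, and in 10.8% of 27025 promoters of that length. The motifs were chosen with the promoters in view, so the higher share among the members is no test of enrichment. Nor are the matches independent, as the windows of Saa1 and Saa2 were 94.8% identical and those of Orm2 and Orm3 85.9%. The windows with a match were those of Saa1, Saa2, Saa3, Saa4, Orm2 and Orm3, so they belonged to genes that fell, that rose and that did not pass. Crp and Apcs, which fell, had no match. For HNF4alpha, the word CAAAGTCCA and a direct repeat motif occurred in 0.477% and 0.381% of promoters and in 0 of the 8 windows. The STAT motif TTCNNNGAA (8.47% of promoters) was found in the Apcs window alone, where it began 244 bases before the start. An NF-kappaB motif (1.43%) and an HNF1 motif (0.437%) had 0 matches. No matched word overlapped with a match of another motif. A missing match says only that these letters are not in the window.

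Other acute phase genes also moved in both directions. Of 21 fitted genes known to be raised in inflammation, 6 rose and 4 fell, where 6.71% of all fitted genes rose and 5.21% fell. The median difference of the 21 was 0.13, against 0.09 for all fitted genes. Fgl1, a fibrinogen-like secreted protein, was at 12.47 in the Cre liver, against 10.04 and 10.21 in the control livers, and rose by 2.35 (± 0.13 SE, limma adjusted p = 0.00295). Lbp, which presents bacterial lipopolysaccharide to its receptor, rose by 1.29 (± 0.18 SE), and Lrg1, a leucine-rich plasma glycoprotein, by 0.89 (± 0.11 SE). The metallothionein genes Mt1 and Mt2 rose by 3.77 and 3.81, although Mt1 was at 1.03 without shared probe sets (limma adjusted p = 0.0903). Ceruloplasmin, encoded by Cp, was 0.51 higher, a call that did not pass in 3 of 9 other settings (highest adjusted p = 0.109).

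Several plasma proteins of the same list fell. Cfb, complement factor B, was at 9.66 in the Cre liver, against 10.86 and 10.88 in the control livers (-1.21 ± 0.11 SE, limma adjusted p = 0.0097). Serpina3n, a protease inhibitor, fell by 0.90 (± 0.12 SE). Hpx, whose product hemopexin scavenges haem, fell by 0.71 (± 0.09 SE), in contrast to Hp; without the intensity trend its adjusted p was 0.0676. Itih4 was 0.55 lower, and that call was lost in 2 of 8 other settings. The fibrinogen chains Fga, Fgb and Fgg, at -0.15, 0.16 and -0.30, did not pass. Another list held 10 fitted genes lowered in inflammation, most of them for plasma proteins. Of these, 3 fell and 2 rose, against 5.21% and 6.71% of all fitted genes. Serpina6, which encodes corticosteroid-binding globulin, rose by 1.65 (± 0.16 SE) and Igf1 fell by 0.91 (± 0.09 SE; by 1.65 without shared probe sets). Smaller calls were those of Fetub, a fetuin, at 0.75, Ttpa, which transfers vitamin E, at -0.70, and Pzp, a protease inhibitor, at -0.54. Each of these was lost in at least 1 other setting, with adjusted p up to 0.0661 for Fetub, 0.0672 for Ttpa and 0.1 for Pzp (limma).

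**Figure D3:**
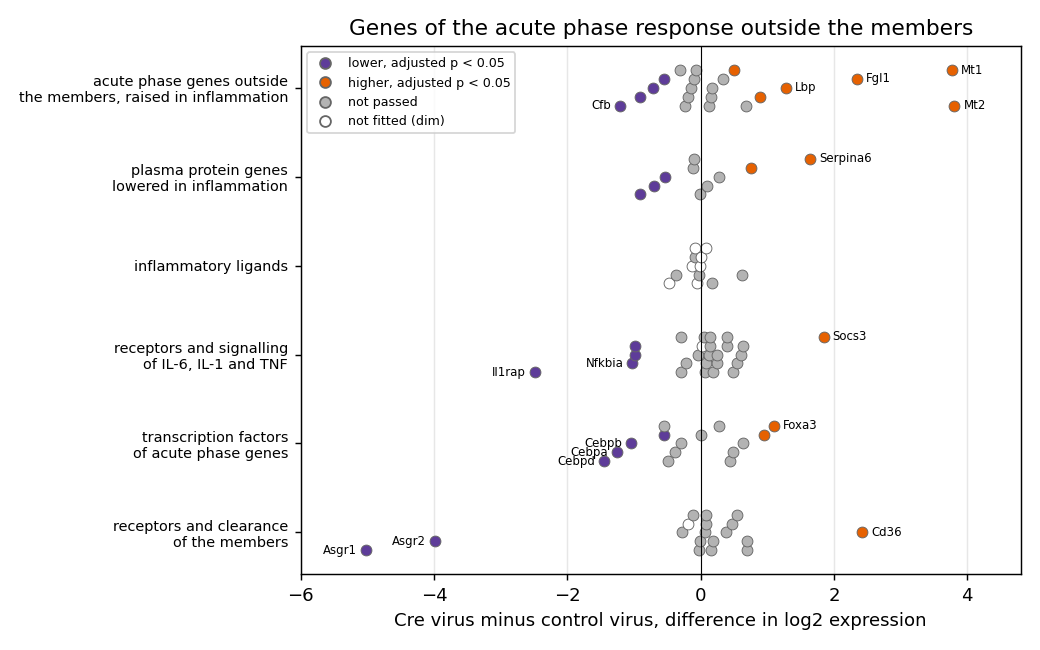
Difference between the Cre liver and the control mean (horizontal axis, log2 expression) for genes of 6 lists (rows), with 1 point per gene. Purple points fell, orange points rose, grey points did not pass and white points were too dim to fit; called genes beyond 1 log2 unit are named, from Asgr1 at -5.02 to Mt2 at 3.81.

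Most inflammatory ligands gave little signal. Of 12 with a probe set, 7 lay below the filter on dim genes, including Il6, at 2.14 in the Cre liver, against 1.98 and 2.14 in the control livers. None of the 5 that were fitted passed by limma. An unadjusted p under 0.05 was seen for 1 of these 5, Ctf1 (0.62 ± 0.15 SE, limma adjusted p = 0.075). That level was reached by 3977 of all 12735 fitted genes. Cytokines made outside the liver are not measured by liver RNA.

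Among 24 fitted receptors and signalling genes, 1 rose and 4 fell, where 6.71% of all fitted genes rose and 5.21% fell. Il1rap, the accessory chain of the interleukin-1 receptor, was at 8.53 in the Cre liver, against 10.98 and 11.04 in the control livers. It fell by 2.49 (± 0.11 SE, limma adjusted p = 0.00208), or by 0.78 when its probe sets were averaged, including those below the filter on dim genes. Its other fitted probe set, 1421844_at, was at 5.06 in the Cre liver, against 5.47 and 5.88 in the control livers, and did not pass. Il1r1, the ligand-binding chain, was at -0.99 (± 0.19 SE, limma adjusted p = 0.0484); it passed in 5 of 9 other settings and stood at -0.45 when its probe sets were averaged. Tnfrsf1b, a tumour necrosis factor receptor, fell by 0.99 (± 0.15 SE; adjusted p = 0.0511 without the filter). Nfkbia, the NF-kappaB inhibitor and itself an NF-kappaB target, fell by 1.02 (± 0.13 SE).

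Of the interleukin-6 pathway, Il6ra (-0.30) and Il6st (-0.22), the receptor chains, did not pass, and neither did Stat3 (0.48 ± 0.15 SE, limma adjusted p = 0.125). Socs3, a feedback inhibitor that STAT3 induces, was at 7.83 in the Cre liver, against 5.87 and 6.09 in the control livers. It rose by 1.84 (± 0.17 SE, limma adjusted p = 0.0115). On its probe set without a shared suffix, 1416576_at, it was at 6.25 in the Cre liver, against 5.80 and 5.50 in the control livers, a difference of 0.60 that did not pass (limma adjusted p = 0.161 among genes read without shared probe sets). Its remaining probe set, 1456212_x_at, was at 6.92 in the Cre liver, against 5.31 and 5.42 in the control livers. That one rose by 1.56 (± 0.16 SE, limma adjusted p = 0.0233 over probe sets). With its probe sets averaged, Socs3 was at 1.33.

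**Figure D4:**
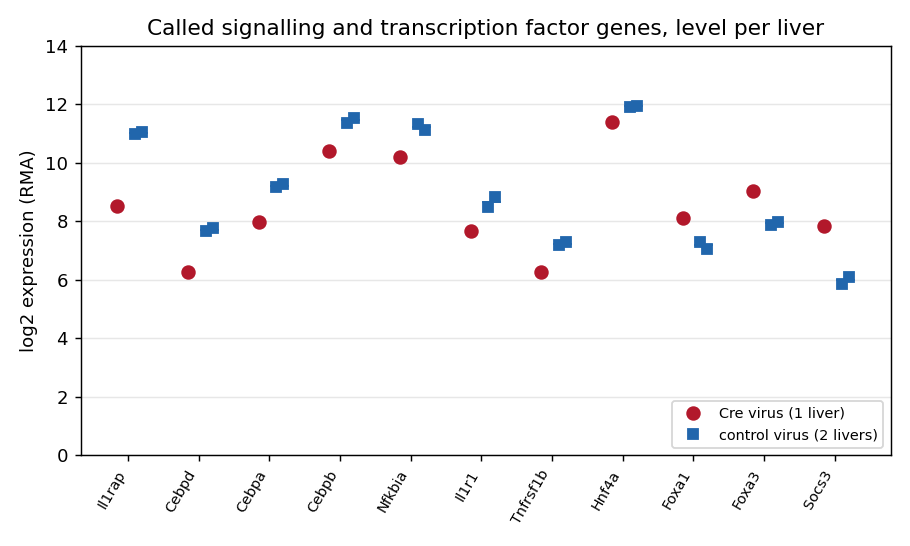
Level in each liver, in RMA log2 expression (vertical axis), of the 11 receptor, signalling and transcription factor genes (horizontal axis) that passed the test, ordered from the lowest to the highest difference. Circles are the Cre liver and squares the 2 control livers; Il1rap shows the widest gap below the controls (-2.49) and Socs3 the widest above (1.84).

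Of 15 fitted transcription factor genes, 4 fell and 2 rose, where 5.21% of all fitted genes fell and 6.71% rose. Among the 4 was the targeted gene itself, Hnf4a (-0.55), whose call passed in 6 of 9 other settings. The C/EBP genes Cebpa, Cebpb and Cebpd all fell. Cebpd, whose product is itself induced in the acute phase, was at 6.27 in the Cre liver, against 7.68 and 7.76 in the control livers (-1.45 ± 0.14 SE, limma adjusted p = 0.0124; -0.77 with its probe sets averaged). Cebpa fell by 1.26 (± 0.13 SE) and Cebpb by 1.04 (± 0.12 SE), while Cebpg, at 0.27, did not pass. Foxa3 rose by 1.10 (± 0.13 SE), and Foxa1, at 0.95 (± 0.17 SE), passed in 6 of 9 other settings. Nr3c1, the glucocorticoid receptor that acts with C/EBP factors on orosomucoid genes, was at -0.49 and did not pass (limma adjusted p = 0.0957).

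Receptors that bind or clear these proteins were measured too. Asgr1 and Asgr2 encode the hepatocyte asialoglycoprotein receptor, which takes up desialylated plasma glycoproteins such as orosomucoid. Asgr1 was at 6.45 in the Cre liver, against 11.53 and 11.40 in the control livers, and fell by 5.02 (± 0.12 SE, limma adjusted p = 0.00107). Asgr2 was at 3.15 in the Cre liver, below the filter level, against 7.08 and 7.20 in the control livers, and fell by 3.99 (± 0.16 SE), a size that is uncertain so close to background. Cd163, the macrophage receptor for haptoglobin bound to haemoglobin, was at 0.09 and did not pass. Cd36, a scavenger receptor that can bind serum amyloid A, rose by 2.43 (± 0.38 SE; adjusted p = 0.0613 without the filter). In all, 1 of 17 fitted genes rose and 2 fell, against 6.71% and 5.21% of all fitted genes.

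Macrophage markers were mostly higher in the Cre liver and also differed between the controls. Of 11 macrophage and Kupffer cell markers with a probe set, 8 were above both controls in the Cre liver and 2 below both, where 49.7% of all fitted genes were above both and 33.6% below both. Their summed linear signal was 2064 in the Cre liver, against 1091 and 1609 in the control livers. Only Marco passed, with a rise of 1.88 (± 0.16 SE; 0.77 with its probe sets averaged). Saa3, which macrophages can make, was at -0.14, against a median of 0.64 for the 10 fitted markers. Values above both controls were not particular to macrophage markers. They were also seen for 6 of 7 liver endothelial and 6 of 8 stellate cell markers, with 1 and 0 below both, and 0 of these passed. Of 11 neutrophil markers, 9 were below both controls and 2, S100a8 and S100a9, above both. Of these 11, 5 lay under the filter level on all arrays, and of the 6 fitted 0 passed by limma. At an unadjusted p under 0.05, a level that 3977 of all 12735 fitted genes reached, 1 was lower. The summed linear signal of the 11 neutrophil markers was 158 in the Cre liver, against 201 and 188 in the control livers. Among cholangiocyte markers, Sox9 was called higher (2.35 ± 0.43 SE, limma adjusted p = 0.0452), a call that passed in 5 of 8 other settings, while Krt19 was at 3.59 in the Cre liver, against 3.72 and 3.79 in the control livers. All 3 adipocyte markers with a probe set lay under the filter level on all arrays. The part of these cells in the values of the 10 genes was not tested.

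Over the 3 arrays, the fitted genes nearest to Saa1, by Euclidean distance after centring each gene on its mean, were Apob (distance 0.01), Hoga1, Ethe1, Gstt3 and Spsb4, with differences from -3.02 to -2.84. Those nearest to Orm3 were Ctps2 (distance 0.08), Cdca3, Pfn2, Ckap2 and Tmem71, with differences from 2.03 to 2.29. With 3 arrays from 2 groups, this likeness is little more than an equal difference between the groups.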

How the data were processed

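Total liver RNA was labelled with biotin by in vitro transcription and hybridised to 1 single-colour array per mouse, per the labels' protocols. For each probe set the authors deposited a log2 value; the submitters' processing notes name Partek 6.5 and RMA, a method of background correction, quantile normalization and probe summary. The base of the logarithm was inferred from the range (maximum 15.048), and all folds depend on it. A change common to all genes would be removed by such scaling, and no detection calls were used. The number of arrays limits the precision.

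Of 45101 probe sets, 34945 listed 1 gene, 932 several, 9160 none and 64 were array controls. Of those with 1 gene, 34741 matched a mouse gene table (GRCm38.p6, names and gene order only) by Entrez ID. The brightest probe set stood for each of 18193 genes, and the fit took genes whose mean reached the 30th percentile (3.77). limma 3.58.1 in R 4.3.3 (lmFit, eBayes with an intensity trend) left 1 residual and added 3.18 prior degrees of freedom, and p-values are two-sided. Fits per probe set covered the single-gene probe sets past the same level. Means over a gene's probe sets also took in those below that level. The script was tested on simulated data. Motifs and alignments used Biopython 1.88, and figures matplotlib 3.10.9, in Python 3.11.15; the motifs were chosen with the promoters in view.

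The 10 genes and all lists were chosen with earlier results of these data known. All members are named; from each list, the called genes were named, and others where needed to describe it. For the highest and lowest member, the 5 nearest genes were named. Alternatives were moderation without trend or robust, no filter, a filter at the 50th percentile or on the control mean, median centring, quantile normalization, the mean of probe sets, no probe sets ending in _s_at, _x_at or _a_at (called shared here), each probe set alone, each control left out and other call rules.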

Additional observations from a re-analysis of the deposited data

How the results depend on the processing

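Every member kept its sign in each of the fits of other settings, and the calls of Saa1, Saa2, Saa4, Crp, Orm3 and Hp held in all of those that could read them, with the highest adjusted p at 0.0475 for Hp and 0.0466 for Saa2 (limma). Apcs, at -1.12, did not pass without the intensity trend or without the filter. Without the trend, 11 genes of the other lists fell, against 17 in the fit reported. Without the filter, 446 genes rose over the whole array, against 855. Without shared probe sets, which leaves out Saa2 and Saa3, 471 genes rose, and 7 genes of the other lists rose and 11 fell, against 12 and 17. At an adjusted p under 0.01, 92 genes rose and 255 fell, and of the members 0 rose and 3 fell by limma. At an unadjusted p under 0.05, 2 members were higher and 5 lower. That loose level was reached, in either direction, by 3977 of all 12735 fitted genes. By size alone, 468 genes and 1 member were at least 1 log2 unit above both controls.

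Leaving out a control gave values with no test, as no residual degrees of freedom were left, and so no counts of calls. Without control replicate 1 and without control replicate 2, the differences were -2.84 and -3.12 for Saa1, -1.73 and -2.27 for Saa2, -1.28 and -0.96 for Apcs, 2.37 and 2.01 for Orm3, 0.12 and -0.08 for Orm1, and 0.18 and -0.26 for Orm2. Median centring moved the median of all fitted genes to 0.08 and quantile normalization to 0.02, against 0.09. No paired analysis was possible, because there was only 1 Cre array and its title carries no replicate number. The 1 Cre mouse could not be left out.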
